A study of Mus musculus with 24 samples.

Results

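*Arxes1* and *Arxes2* are a pair of adipocyte paralogs on the mouse X chromosome, and they are 2 of the 26995 gene symbols in the deposited tables. They were selected on measured values: labelled reads of *Arxes2* were higher with ML-792 than with DMSO at day 7, and *Arxes1* was added as its paralog. Each gene symbol stands for 1 counted 3′UTR, the one whose mean count was highest, and both genes have 1 entry. The libraries come from 3T3-L1, an established mouse embryonic fibroblast line whose pre-adipocytes differentiate into fat cells on induction with dexamethasone, 3-isobutyl-1-methylxanthine and insulin. Cells were kept in DMSO, the vehicle, or in 0.5 μM ML-792, a selective inhibitor of the SUMO-activating enzyme SAE1/2, and were collected at day −2 (before induction) and at days 1, 3 and 7, with 3 biological replicates (A, B and C) in each of the 8 conditions. All cells, DMSO included, received 100 μM 4-thiouridine for 45 min before collection, so that RNA made in that time carries T to C conversions. The time at which ML-792 was first added is not given for these libraries in the sources used here, and all samples are cultures of one cell line.

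The *Arxes* genes, for adipocyte-related X-chromosome expressed sequences, arose in rodents from a retrotransposed copy of *Spcs3*, which encodes subunit 3 of the signal peptidase complex, the enzyme of the endoplasmic reticulum that cuts signal peptides from secreted and membrane proteins. They have no introns, they are expressed mainly in adipose tissue, and their knockdown is known to impair adipocyte differentiation. PPARγ, the nuclear receptor that drives the adipocyte program, is known as a regulator of these genes.

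Both genes lie on the plus strand of chromosome X in the mouse genome build mm10 (GRCm38). *Arxes2* (NM_029823.2) spans 135993820 to 135995359, and its counted 3′UTR covers 135994502 to 135995359, 858 bases with 316 T. *Arxes1* (NM_029541.3) spans 136033367 to 136034946, and its counted 3′UTR covers 136034049 to 136034946, 898 bases with 314 T. The annotated starts are 39547 bases apart. The RefSeq promoter windows, which run from 250 bases before to 50 bases after the annotated start, were identical in all 300 positions. One sequence therefore stands for both, printed here from *Arxes2* with matches to the GC box GGGCGG in capitals.

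Arxes2 promoter, build GRCm38.p6, plus strand, chrX:135993570-135993869: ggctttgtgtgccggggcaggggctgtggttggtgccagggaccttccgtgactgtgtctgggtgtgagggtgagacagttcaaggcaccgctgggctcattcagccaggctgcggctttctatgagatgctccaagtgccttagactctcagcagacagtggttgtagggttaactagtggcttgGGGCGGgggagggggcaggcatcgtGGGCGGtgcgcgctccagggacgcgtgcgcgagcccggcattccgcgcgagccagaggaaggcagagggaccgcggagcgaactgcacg

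The same letters stand at chrX:136033117-136033416 before *Arxes1*. GGGCGG was found at positions −64 and −39 from the start, both on the plus strand, in each promoter, and 35.7% of the 32851 RefSeq promoter windows of this length held it on either strand. TATAAA (held by 13.6% of all windows), CCAAT (37.4%), CACGTG (7.15%) and the nuclear receptor half-site AGGTCA (16.3%) were not found in this window on either strand. The identity reached 357 bases before the annotated start without a difference. The coding sequences in GENCODE, 540 bases each, were also identical between the paralogs, and each matched *Spcs3* in 427 of these 540 positions (79.1%).

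Downstream of the coding sequence the paralogs parted. The counted 3′UTRs began with 16 identical bases, and a global alignment of both then held 492 identical columns of 944. In an ungapped comparison anchored on the starts, windows over 500 bases before or at least 800 bases after the start held 16 to 36 identical bases of 100. None of the 849 windows of 50 bases, the read length, in the *Arxes1* 3′UTR occurred in that of *Arxes2*, and the closest pair of windows differed at 16 of 50 positions. Reads of these 3′UTRs can thus be told apart by sequence, although promoter and coding sequence cannot. Whether both 3′UTRs were captured equally was not tested, which limits a comparison of level between the paralogs. The deposited column of mean multimapping reads was 0 for every entry, and the study states default settings for SlamDunk without spelling out how multimapping reads were handled. The polyadenylation hexamer AATAAA began 26 bases before the annotated end of *Arxes2*, whereas its only match in the *Arxes1* 3′UTR lay 675 bases before the end. Where the *Arxes1* RNA ends in these cells was not tested.

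**Figure D1:**
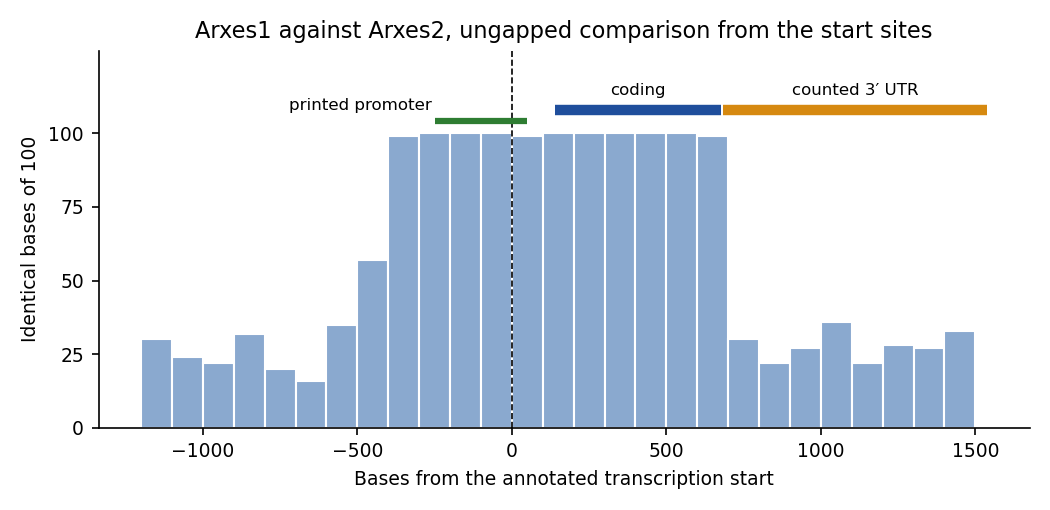
Identical bases in windows of 100 bases between *Arxes1* and *Arxes2*, compared without gaps against the distance in bases from the annotated start; bars at the top mark the printed promoter, the coding sequence and the 3′UTR on which reads were counted. Identity was 99 or 100 of 100 from 400 bases before the start to the end of the coding sequence and 16 to 36 of 100 in the windows farther than 500 bases before or 800 bases after the start.

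Counts summed over all entries ran from 13554718 to 27013352 total and from 115709 to 820046 labelled reads per library. Labelled reads are reads with at least 1 T to C conversion. Entries of one gene can share reads, so these sums can hold a read more than once and are not sequencing depth. In these sums, labelled reads made up 2.71% to 3.68% of a DMSO library at day −2 and 0.923% to 1.15% at day 3. The culture's labels were checked on the 5 adipocyte markers (*Adipoq*, *Plin1*, *Cidec*, *Fabp4* and *Lipe*), whose summed normalized counts were 1346 to 2139 per DMSO library at day −2 and 332032 to 387497 at day 7. The 5 pre-adipocyte markers (*Dlk1*, *Pdgfra*, *Pdgfrb*, *Thy1* and *Col1a1*) summed to 189022 to 237418 at day −2 and 12542 to 19005 at day 7. The 4 macrophage markers summed to 24.7 to 153 per library in all conditions, with *Ptprc* at 0 in every library and at most 5 reads of *Adgre1*. In such bulk samples, fewer cells of a type and less RNA per cell cannot be told apart.

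*Arxes2* rose 25.3-fold between day −2 and day 3 of normal differentiation and *Arxes1* rose 31.9-fold, with no call at day 1 for either gene. The total counts of *Arxes2*, normalized to the mean library size, were 107, 147 and 95.8 in the DMSO libraries A, B and C of day −2 and 141, 134 and 141 at day 1. They were 2800, 3467 and 2609 at day 3 and 2278, 3578 and 2132 at day 7. All libraries of days 3 and 7 lay above all of days −2 and 1, as in 10.7% of the entries tested, and days 3 and 7 overlapped. By edgeR's quasi-likelihood test, day 1 differed from day −2 by a log2 fold change of 0.26 (SE 0.23, adjusted p = 0.46). Day 3 differed by 4.66 (SE 0.25, adjusted p = 1.6e-09). Day 7 had a fitted value of 4.51, given without a test because the DMSO libraries of day 7 were used in choosing the pair.

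*Arxes1*, the paralog with the lower counts, had 6.41, 7.05 and 8.70 normalized counts in libraries A, B and C of DMSO day −2 and 3.75, 8.99 and 2.53 at day 1, which are 3 to 10 raw reads per library. At day 3 it had 227, 242 and 249 normalized counts and at day 7 146, 246 and 192. The DMSO replicates of *Arxes1* at day 3 were close together (240 ± 11.3, SD, n = 3), and days 3 and 7 overlapped with each other but not with the earlier days. *Arxes1* was not called at day 1 (log2 fold change from day −2 of -0.52, SE 0.47, adjusted p = 0.47). Without replicate B this value was -1.31 and without replicate C -0.07, and neither was called. *Arxes1* was called at day 3 (5.00, SE 0.38, adjusted p = 4.8e-08), and day 7 had a fitted value of 4.70, again without a test.

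The rise lay between day 1 and day 3 for both paralogs. *Arxes1* was 45.8-fold higher at day 3 than at day 1 (95% interval 25.6 to 82.1, adjusted p = 7.5e-08) and *Arxes2* 21.1-fold higher (14.6 to 30.5, adjusted p = 6.6e-09). Without replicate B, which held 10 of the 17 *Arxes1* reads of day 1, the *Arxes1* fold was 73.3. From day 3 to day 7 the fitted log2 fold change was -0.29 for *Arxes1* and -0.14 for *Arxes2*, also without a test. The threshold of the DMSO course was an adjusted p under 0.01. Of all 26563 entries tested, 14.4% were called higher at day 3 than at day −2, 16% at day 7 than at day −2 and 9.1% at day 3 than at day 1. In either direction 13.7% were called at day 1 against day −2 and 8.64% at day 7 against day 3. By fold change from day 1 to day 3, 86 of 13331 genes, each represented by 1 entry, lay above *Arxes1* and 162 above *Arxes2*.

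The adipocyte list of 22 genes gives the pathway around the pair, with lipid droplet proteins, lipases, adipokines and enzymes of lipid storage. All 22 were called higher at day 7 than at day −2 and 21 at day 3, with a median log2 fold change of 6.11 at day 3 beside 0.06 over all genes. Between days 3 and 7, 13 of the 22 were called higher, with a median of 1.22. None of the 5 genes of the signal peptidase complex (*Spcs1*, *Spcs2*, *Spcs3*, *Sec11a* and *Sec11c*) was called over the DMSO course. For *Spcs3*, the intron-containing relative of the pair, 808 ± 327 normalized counts were found before induction and 560 ± 124 on day 3 (SD, n = 3).

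**Figure D2:**
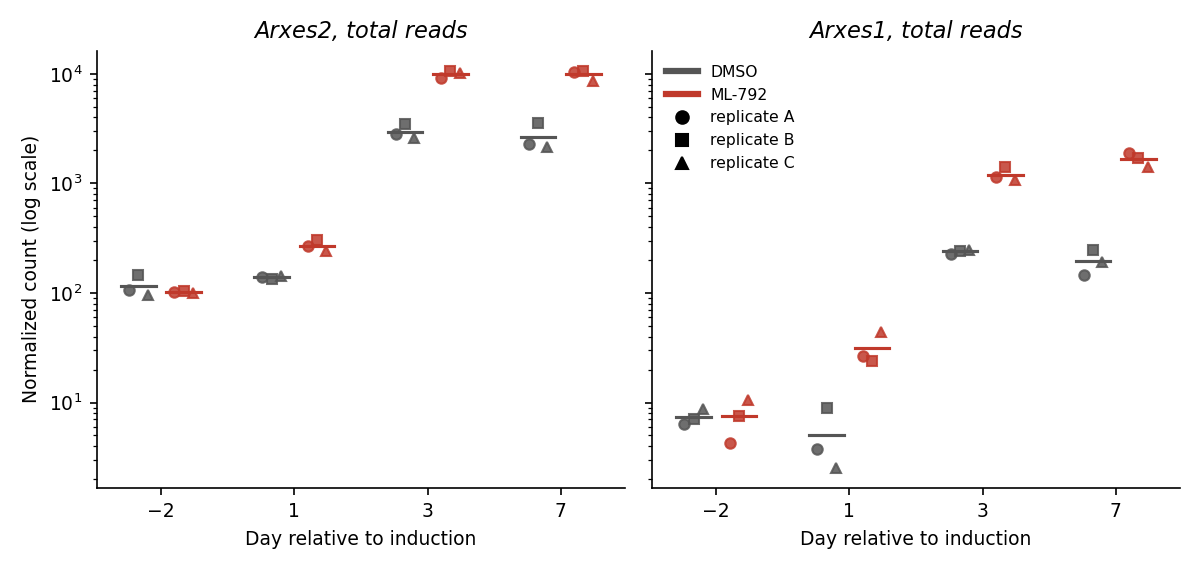
Normalized total counts (log scale) of *Arxes2* and *Arxes1* in each of the 24 libraries by day; symbols are replicates A, B and C, and short lines are means of 3 libraries in DMSO (grey) or ML-792 (red). In DMSO, *Arxes2* had means of 117, 139, 2959 and 2662 and *Arxes1* of 7.39, 5.09, 240 and 195 at days −2, 1, 3 and 7, and ML-792 libraries lay above DMSO from day 1 on.

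With ML-792, both paralogs were higher than in DMSO at day 1 and day 3 but not at day −2. *Arxes2* had 103, 105 and 100 normalized counts with ML-792 in libraries A, B and C at day −2, within the range of its DMSO libraries. At day 1 it had 266, 305 and 239, above the highest DMSO library at 141, and at day 3 9244, 10618 and 10094, above the highest DMSO library at 3467. The fitted fold was 0.882 at day −2 (95% interval 0.667 to 1.17, adjusted p = 1), 1.94 at day 1 (1.48 to 2.56, adjusted p = 0.0025) and 3.38 at day 3 (2.58 to 4.41, adjusted p = 3.8e-07). Without replicate A the fold at day 1 was 1.97 and was not called (adjusted p = 0.16).

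*Arxes1* had 4.31, 7.55 and 10.6 normalized counts with ML-792 at day −2, which overlapped DMSO. At day 1 it had 26.4, 23.9 and 44.1, from 24, 20 and 47 raw reads, above the highest DMSO library at 8.99. Its libraries with ML-792 at day 3 had 1138, 1401 and 1080, above the highest DMSO library at 249. The fitted fold of *Arxes1* was 1.04 at day −2 (95% interval 0.585 to 1.86, adjusted p = 1), 6.16 at day 1 (3.59 to 10.6, adjusted p = 5.6e-05) and 5.03 at day 3 (3.56 to 7.13, adjusted p = 2.9e-07). All 3 libraries with ML-792 exceeded all 3 in DMSO at both days for both genes, a separation found in 9.59% of entries tested at day 1 and 10.9% at day 3. The *Arxes1* fold at day 1 rested on few reads and was 11.1 without replicate B (adjusted p = 2.4e-05) and 3.84 without replicate C (adjusted p = 0.034).

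Of all entries, 3.14% were called higher with ML-792 at day 1 and 6.57% at day 3 (adjusted p under 0.1). At day −2 edgeR called 0% of entries in either direction (346 of 26563 had an unadjusted p under 0.05), and DESeq2 also called 0. By fold at day 3, 356 of 13331 genes lay above *Arxes1* and 576 above *Arxes2*. At day 1 the numbers were 159 and 970. The change between days was itself tested. The log2 fold change with ML-792 was larger at day 3 than at day −2 by 2.27 for *Arxes1* (SE 0.48, adjusted p = 0.0057) and by 1.94 for *Arxes2* (SE 0.27, adjusted p = 5.4e-05), a difference called higher in 2.64% of entries. Without replicate A the *Arxes1* difference was 2.13 and was not called (adjusted p = 0.19). Between days 1 and 3 the effect differed by -0.29 for *Arxes1* (adjusted p = 0.93) and 0.80 for *Arxes2* (adjusted p = 0.13), neither of which was called, beside 3.68% of entries in either direction. The *Arxes2* difference was called in edgeR with the replicate letter as a block (0.82, adjusted p = 0.0057) or without replicate B (1.00, adjusted p = 0.0031). DESeq2 also called it (0.82, adjusted p = 0.074), and the other alternatives did not.

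At day 7, the day on which the pair was chosen, the values are a description. *Arxes2* had 10447, 10714 and 8608 normalized total counts with ML-792 against 2278, 3578 and 2132 in DMSO, a fitted fold of 3.73. *Arxes1* had 1897, 1708 and 1413 with ML-792 against 146, 246 and 192, a fitted fold of 8.58. The groups did not overlap for either gene, as in 12.1% of entries, and 5.27% of all entries were called higher at this day. Day 7 gave the *Arxes1* level its maximum over the 8 conditions (1673 ± 244, SD, n = 3), with ML-792 at day 3 next below (1206 ± 171). Then came DMSO at days 3 and 7, which overlapped, ML-792 at day 1, and both treatments at day −2 with DMSO at day 1, which overlapped. For *Arxes2* the means with ML-792 at day 3 (9985 ± 694) and day 7 (9923 ± 1147) came first and overlapped. They were followed by DMSO at days 3 and 7, which overlapped, ML-792 at day 1, DMSO at day 1, DMSO at day −2 and ML-792 at day −2, and each of these last 3 overlapped its neighbour.

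The adipocyte list did not move one way with ML-792. At day 1, 7 of its 22 genes were called higher and 1 lower, beside 509 and 540 of all 13331 genes. At day 3, 4 were called higher and 6 lower, beside 1072 and 1000 of all genes. The median log2 fold change at day 3 was -0.24 beside -0.01 over all genes. At day 7, 6 were called higher and 5 lower, beside 842 and 724 of all genes. *Cd36*, a fatty acid transporter, rose by 1.59 at day 3 (adjusted p = 2.37e-05). Beside the 6 genes called lower, *Gpd1* rose by 2.40 (adjusted p = 1.87e-08) and *Aqp7* by 4.16 (adjusted p = 3.5e-07). Both lay above the 2.33 of *Arxes1* and the 1.75 of *Arxes2*, although *Aqp7* had at most 7 raw reads in a DMSO library of day 3. *Adipoq*, the gene of the hormone adiponectin, fell by 0.89 (adjusted p = 0.0106). *Fabp4*, a fatty acid binding protein, had 0.64 (adjusted p = 0.155) and *Pparg* -0.52 (adjusted p = 0.623). The *Arxes* pair and *Adipoq* thus changed in opposite directions at day 3, whereas at day 7 *Adipoq* rose by 0.80 (adjusted p = 0.0283, all by edgeR). Of the 5 pre-adipocyte markers, 3 were called higher with ML-792 at day 3 and 0 lower. Their sum was 20349 to 26406 against 11645 to 14315 in DMSO, and *Col1a1* held most of it (means of 17673 and 7427). *Dlk1* (2541 with ML-792 and 3662 in DMSO) and *Pdgfrb* (125 and 136) had lower means. The part of these markers in the *Arxes* result was not tested. The adipocyte markers summed to 249079 to 284116 with ML-792 and 173264 to 261859 in DMSO at that day. Of these 5 markers, 0 were called higher and 2 lower, with a median log2 fold change of -0.08. *Fabp4* held most of the sum, with means of 216210 with ML-792 and 139003 in DMSO. In the signal peptidase complex only *Sec11c*, a catalytic subunit, rose (log2 fold change 1.44 on day 3 with adjusted p = 0.000568, after 0.81 on day 1 with adjusted p = 0.0862), and *Spcs3* had -0.02 at day 3 (adjusted p = 0.989).

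**Figure D3:**
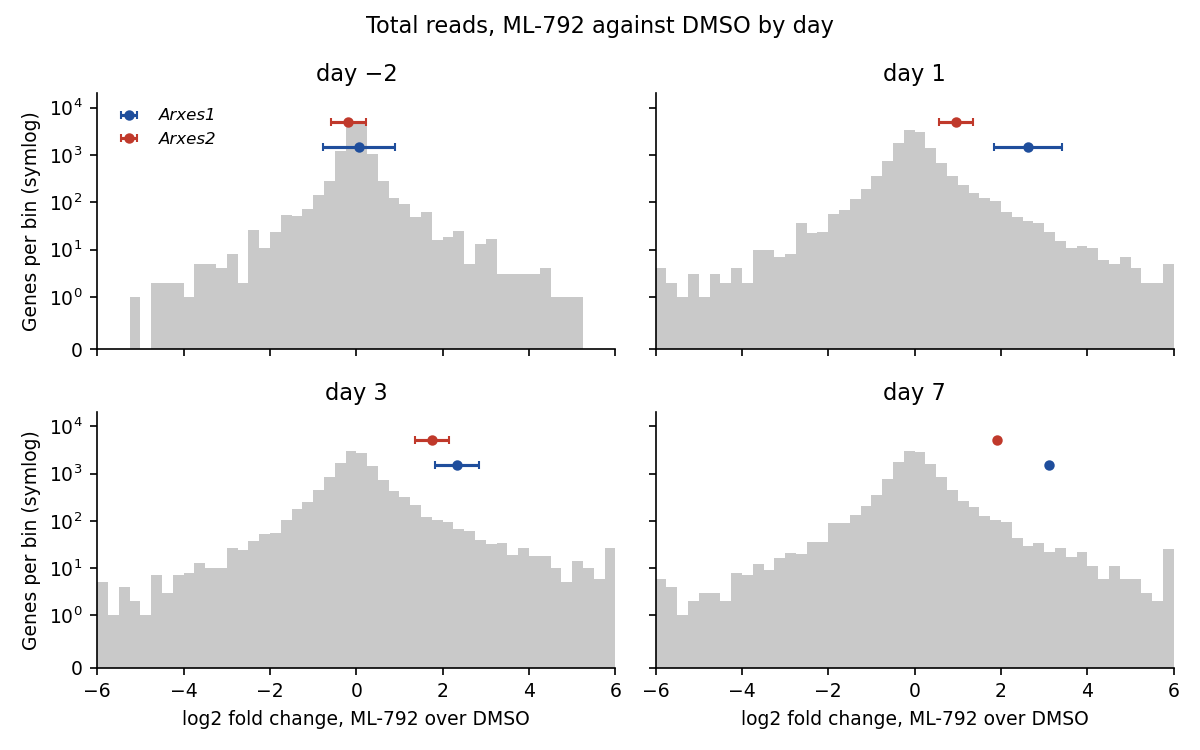
Number of genes by log2 fold change of ML-792 over DMSO in total reads (grey bars, bins of 0.25, symmetric log axis, outermost bins hold all larger values) at each day, with *Arxes1* (blue) and *Arxes2* (red) placed above at their fitted values and 95% intervals; no interval is drawn at day 7, the day of selection. The pair lay near 0 at day −2 and moved to 2.62 and 0.96 at day 1 and 2.33 and 1.75 at day 3.

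Labelled reads stand for RNA made during the 45 min pulse, together with any sequencing errors that look like conversions, and no library without 4-thiouridine was analysed here. *Arxes2* had 5, 6 and 0 labelled reads in the DMSO libraries A, B and C at day −2 and 1, 3 and 1 at day 1. It had 19, 16 and 15 at day 3 and 14, 20 and 14 at day 7. All libraries of days 3 and 7 lay above those of the earlier days, as in 1.63% of the labelled entries tested, with counts that leave a wide counting error. Scaled by the total reads, day 1 was not called against day −2 (fitted fold 0.501, adjusted p = 0.43). Day 3 was called (log2 fold change 2.58, SE 0.81, adjusted p = 0.0079), and day 7, seen in the selection, had a fitted value of 2.45 with no test. With labelled library sizes in place of total ones, the folds were 0.953 at day 1 and 13.5 at day 3. The rise from day 1 to day 3 was called (3.58, SE 0.90, adjusted p = 0.0067). Without any one replicate the rise from day 1 was not called (adjusted p 0.011 to 0.14, log2 fold changes 3.32 to 4.28). The call of the rise from day −2 was lost without replicate A (log2 fold change 2.72, adjusted p = 0.065) or C (2.06, adjusted p = 0.078).

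Few labelled entries rose with differentiation. Of 10589 tested, 1.87% were called higher at day 3 than at day −2 and 1.42% higher than at day 1. In either direction 18.3% were called at day 1 against day −2. The median log2 fold change of labelled reads from day −2 to day 3 over all genes tested was -1.58, and 94 of 6434 genes lay above *Arxes2*. Of the adipocyte list 19 genes were tested and 17 were called higher at day 3, with a median of 4.68.

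With ML-792, *Arxes2* had 1, 2 and 1 labelled reads at day −2 and 1, 4 and 6 at day 1, both overlapping DMSO. At day 3 it had 60, 65 and 50 against 19, 16 and 15 in DMSO, a separation found in 5.62% of the labelled entries tested. The fitted fold was 3.60 at day 3 (95% interval 1.81 to 7.16, adjusted p = 0.056), beside 0.359% of entries called higher. The call was lost without any one replicate (adjusted p 0.24 to 0.40, log2 fold changes 1.69 to 1.96). The log2 fold changes of the earlier days, -1.56 before induction (adjusted p = 1) and 1.31 on day 1 (adjusted p = 0.59), were not called, beside 0% of entries at day −2 by edgeR (77 with an unadjusted p under 0.05, and 0 by DESeq2) and 0.822% at day 1. The value of day 1 was 0.62 without replicate C and 1.84 without replicate B. The effect at day 3 differed from that at day −2 by 3.41 (adjusted p = 0.41, with 0.104% of entries called) and from that at day 1 by 0.53 (adjusted p = 0.96, with 0.00944% called). At day 7 the labelled reads that chose the gene were 77, 72 and 43 with ML-792 and 14, 20 and 14 with DMSO, a fitted fold of 4.63, beside 0.0567% of entries called higher and 2.92% without overlap.

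*Arxes1* had too few labelled reads for the filter and was not tested. In DMSO it had no labelled read at days −2 and 1, and 1 read over the 3 libraries at day 3 and 1 at day 7. With ML-792 it had 3, 6 and 5 at day 3 and 5, 8 and 2 at day 7, and none before. At day 3 the lowest library with ML-792 held 3 labelled reads and the highest in DMSO 1, counts too low to set beside the 5.62% of entries that were separated among those past the filter.

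**Figure D4:**
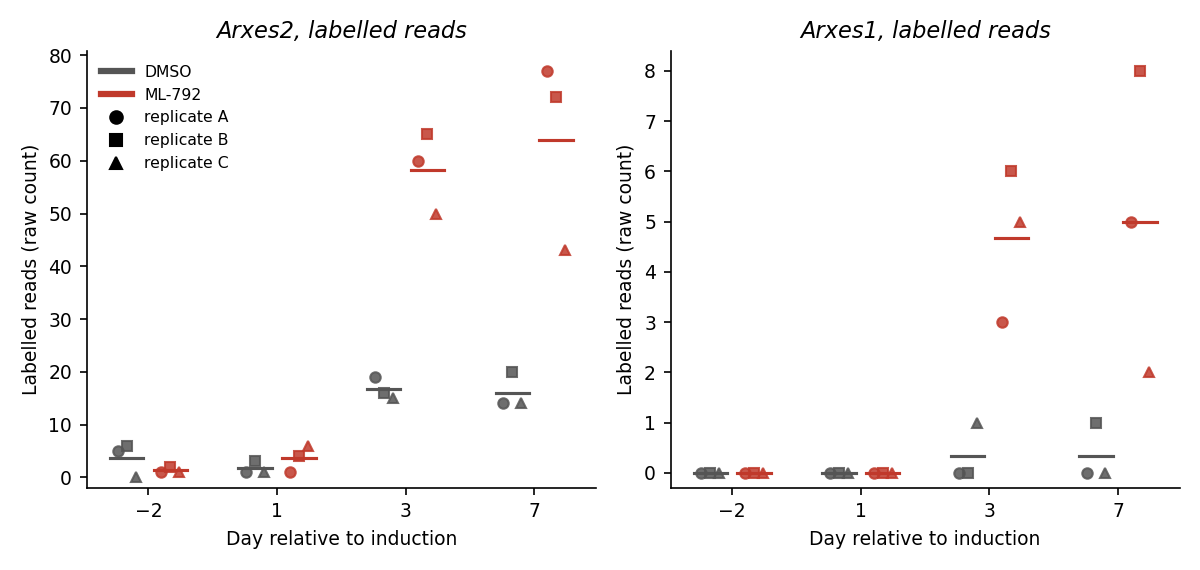
Raw labelled reads of *Arxes2* (left) and *Arxes1* (right, with its own axis) in each library by day; symbols are replicates A, B and C and short lines are means of 3 libraries in DMSO (grey) or ML-792 (red). At day 3, *Arxes2* had 50 to 65 labelled reads with ML-792 and 15 to 19 in DMSO, and *Arxes1* 3 to 6 and 0 to 1.

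The labelled share, labelled reads as a percentage of the gene's total reads, sets newly made RNA against all RNA of the gene. For *Arxes2* in DMSO it was 2.68% before induction (11 of 410 reads in 3 libraries, exact 95% interval 1.35 to 4.75) and 1.07% on day 1 (0.348 to 2.48). These intervals pool the reads of 3 libraries and leave out the spread between them. Before induction, libraries A, B and C had 3.76%, 3.59% and 0%. Day 3 had 0.655% (0.487 to 0.863) and day 7 0.654% (0.483 to 0.866). The share of the whole library fell over the same days from 3.17% ± 0.485 to 1.27% ± 0.0798, 1.03% ± 0.115 and 1.03% ± 0.0869 (SD, n = 3), and its part in the change was not tested. With ML-792 the *Arxes2* share was 0.946% before induction (0.258 to 2.40), 1.46% on day 1 (0.731 to 2.60) and 0.700% on day 3 (175 of 25004 reads, 0.600 to 0.811). Over days −2, 1 and 3 it differed between ML-792 and DMSO by -0.375 percentage points (two-sided exact permutation test within days, p = 0.434, adjusted p = 0.578 over 4 tests). This value moved with single replicates, to -0.03 without replicate A, -0.15 without replicate B and -0.95 without replicate C (exact permutation p = 0.10 for the last). At day 3 the total reads of *Arxes2* were 3.38-fold and the labelled reads 3.60-fold higher with ML-792, and a difference in share was not detectable at this depth.

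For *Arxes1* the share was 0.463% with ML-792 at day 3 (14 of 3021 reads, exact 95% interval 0.254 to 0.776) and 0.162% in DMSO (1 of 617, 0.00410 to 0.900), intervals that overlap. At DMSO day −2, 0 of 26 reads were labelled, for which 3 counts of the total give a limit of 11.5% and the exact 95% interval an upper bound of 13.2%. Over days −2, 1 and 3 the difference was 0.102 percentage points (two-sided exact permutation test, p = 0.20, adjusted p = 0.40). Labelled reads of *Arxes1* were 0 in every library of days −2 and 1, so only day 3 could move this value. The libraries of that day allow too few distinct arrangements for a low p. The test thus cannot decide whether the share differed, and its p is kept only because the permutation tests were adjusted together. The exact intervals of both genes cover counting error only, since reads without molecular identifiers are not independent molecules.

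*Arxes2* had more reads than *Arxes1* in 24 of 24 libraries. Per kilobase of counted 3′UTR, the DMSO level was 136 ± 31.6 for *Arxes2* and 8.23 ± 1.32 for *Arxes1* at day −2, and 3448 ± 525 against 267 ± 12.6 at day 3 (normalized counts per kb, SD, n = 3). The *Arxes2* level per kilobase was 11.0 to 15.0 times that of *Arxes1* in the DMSO libraries of day 3. Without division by length, the ratio of raw counts was 10.5 to 14.3 there. Reverse transcription was primed with oligo dT, so counts need not scale with 3′UTR length and the values per kilobase are only a description. In DMSO the log2 ratio of raw counts averaged 3.89 ± 0.46 before induction and 4.83 ± 0.90 on day 1 (SD, n = 3). Day 3 had 3.61 ± 0.23 and day 7 3.76 ± 0.26. The 3 libraries of day −2 and the 9 later ones differed by -0.18, and the later ones include the day 7 libraries used in choosing the pair. This difference is thus a description. Its two-sided exact permutation test over 220 arrangements (p = 0.80, adjusted p = 0.80) is kept only as 1 of the 4 tests adjusted together. Without the day 7 libraries the difference was -0.33 (two-sided exact permutation test over 84 arrangements, p = 0.61, not adjusted).

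With ML-792 the ratio of the pair was lower in each library of days 1 and 3 than in DMSO. Its log2 mean was 3.79 ± 0.62 before induction, 3.13 ± 0.63 on day 1 and 3.06 ± 0.15 on day 3 (SD, n = 3). At days 1 and 3 no library with ML-792 reached the lowest in DMSO, with 2.43 to 3.65 against 3.83 to 5.59 at day 1 and 2.92 to 3.22 against 3.38 to 3.84 at day 3, whereas day −2 overlapped. Over days −2, 1 and 3 the mean difference was -0.79 (two-sided exact permutation test within days, 8000 arrangements, p = 0.017), and with adjustment over the 4 permutation tests it did not pass 0.05 (adjusted p = 0.068). The ratio was lower with ML-792 in 8 of the 9 pairs of libraries of the same day and letter. Without replicate B it was -0.90 (exact permutation p = 0.12). At day 7, part of the selection, the ratio was 2.57 ± 0.10 with ML-792 and 3.76 ± 0.26 with DMSO (SD, n = 3). *Arxes1* had 3 to 10 reads per DMSO library at days −2 and 1, so the ratio there has a wide counting error.

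**Figure D5:**
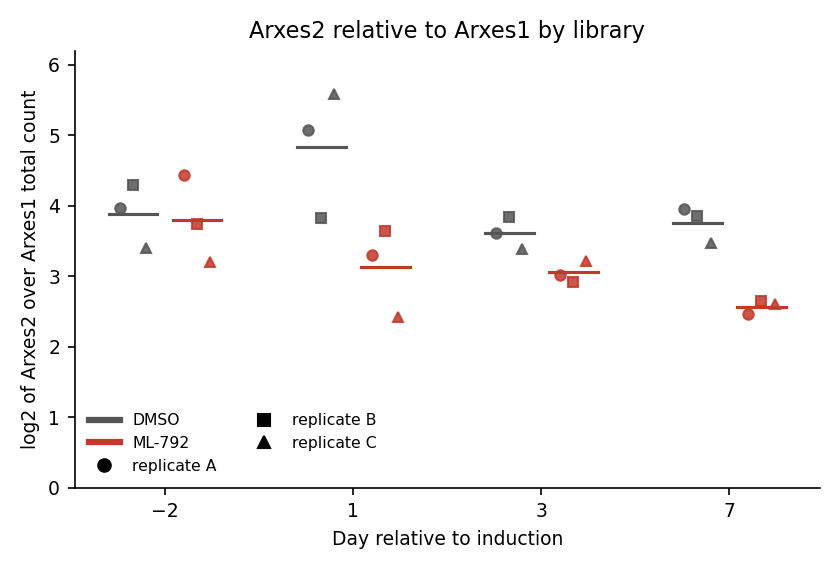
Log2 ratio of *Arxes2* to *Arxes1* total counts (pseudocount 0.5) in each library by day; symbols are replicates A, B and C and short lines are means of 3 libraries in DMSO (grey) or ML-792 (red). Means in DMSO were 3.89, 4.83, 3.61 and 3.76 at days −2, 1, 3 and 7, and with ML-792 3.79, 3.13, 3.06 and 2.57.

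The genes whose total counts followed the pair most closely over the 24 libraries were named by Pearson correlation of log2 normalized counts (pseudocount 2, 13331 genes). For *Arxes1* the first was *Arxes2* (r = 0.983), followed by *Elovl3* (0.981), a fatty acid elongase, *Arl4a* (0.979), a small GTPase of the ARF family, *Ccdc69* (0.973) and *Gsta3* (0.970), a glutathione S-transferase. For *Arxes2* they were *Ccdc69* (0.986), *Elovl3* (0.985), *Slc36a2* (0.984), an amino acid transporter, *Arxes1* (0.983) and *Ephx2* (0.983), the soluble epoxide hydrolase. *Elovl3* had 388 normalized counts in DMSO and 2108 with ML-792 at day 3, and *Ephx2* 4504 and 6761 (means, n = 3). The points share the day and the treatment, so r is a description. By rank correlation 2 of the 5 genes nearest *Arxes1* stayed among the nearest 5, and none of those nearest *Arxes2*.

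None of the tested genes next to the pair on chromosome X rose over the DMSO course to day 3. No counted entry lay between *Arxes2* and *Arxes1*. Of the 3 nearest on either side, *Gprasp1*, *Bhlhb9* and *Nxf3* passed the filter, while *Gprasp2* had at most 20 reads in a library, *Bex2* at most 7 and *Bex4* none. *Nxf3*, 37153 bases beyond *Arxes1*, fell by 2.16 on the log2 scale from day −2 to day 3 (adjusted p = 0.00046), and *Bhlhb9* fell by 1.01 (adjusted p = 0.0037), while *Gprasp1* had 0.10 (adjusted p = 0.83). With ML-792 at day 3, *Bhlhb9* rose by 0.67 (adjusted p = 0.066), while *Nxf3* had 0.16 (adjusted p = 0.90) and *Gprasp1*, a sorting protein for receptors, -0.04 (adjusted p = 0.97, all by edgeR).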

How the data were processed

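Total RNA of 24 libraries was treated for T to C conversion and made into 3′ mRNA libraries (QuantSeq, SLAMseq) by the authors, who read 50 bases from one end. They demultiplexed with bcl2fastq 2.17.1.14 (named in the submitters' processing notes), and mapped and counted reads with SlamDunk (default settings, reads with at least 1 T to C conversion as labelled) on mm10 and RefSeq 3′UTRs. What the authors deposited are raw, not normalized counts, of all and of labelled reads, for 91830 entries. Of the library columns, 6 per deposited file matched no sample and were left out.

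Groups come from the sample titles. Tests were run in R 4.3.3 (edgeR 4.0.16, with limma 3.58.1) and in Python 3.11.15 (scipy 1.17.1). Library sizes took TMM factors of the total counts, for labelled reads too, and filterByExpr (minimum count 10, minimum total 15) left 26563 total and 10589 labelled entries. Quasi-likelihood tests used the 12 DMSO libraries for the time course (adjusted p under 0.01) and all 24 for ML-792 (under 0.1), with Benjamini-Hochberg adjustment over all entries tested. Fits were tested on simulated data. Ratios and shares were compared by exact permutation. Planned edgeR tests of the pair at day 7 of the DMSO course are given as values only, since those libraries were used in choosing the pair. The permutation test of the ratio over the DMSO course held these libraries and is also given without them. Alternatives were DESeq2 1.42.0, no filter, one entry per gene, a replicate block, labelled reads scaled by their own totals, summed paralogs, other sets of libraries, other pseudocounts and leaving out each replicate.

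Named genes are the pair, the 5 genes most correlated with each, the signal peptidase complex, some genes of the adipocyte list, picked after their values were seen, and 3 neighbours on each side. The members and lists were chosen with earlier results of these data known. Each entry's depth is its count; entries of one gene can share reads. Sequences are from RefSeq (GRCm38.p6) and GENCODE M21.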

Additional observations from a re-analysis of the deposited data

Results flagged for a closer look

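The effect of ML-792 on total reads differed between day 3 and day −2 for both paralogs, by a test of the difference itself in edgeR. For *Arxes1* the log2 fold change was larger at day 3 by 2.27 (adjusted p = 0.0057), and all 3 libraries with ML-792 lay above all 3 in DMSO at day 3 but not at day −2. For *Arxes2* it was larger by 1.94 (adjusted p = 5.4e-05), with the same separation at day 3. Such a separation was found in 10.9% of entries tested, and the difference was called higher in 2.64%. Without replicate A the *Arxes1* difference was not called (2.13, adjusted p = 0.19 by edgeR), and *Arxes1* had 5 to 16 raw reads per library at day −2. Groups of 3 libraries were too small to be examined for single outlying libraries.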

How the results depend on the processing

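The rises of both genes in total reads from day −2 to day 3, from day 1 to day 3 and with ML-792 at day 3 kept their direction and their call under every alternative run. Over all values and alternatives, 212 kept direction and call, 13 lost the call, 3 gained it and 9 changed sign, and the causes were not tested. Leaving out each replicate in turn gave *Arxes2* labelled reads log2 fold changes of 2.06 to 3.11 at day 3 against day −2 and 1.69 to 1.96 with ML-792 at day 3. It gave *Arxes2* total reads with ML-792 -0.30 to 0.00 at day −2 and 0.83 to 1.05 at day 1, and *Arxes1* total reads -0.16 to 0.20 at day −2. The log2 ratio of the pair then differed by -0.50 to 0.11 between DMSO day −2 and later days and by -0.90 to -0.59 with ML-792. The effect at day 3 minus day 1 ranged from -1.25 to 0.49 for *Arxes1* total reads (0.49 without replicate C) and from -0.15 to 1.27 for *Arxes2* labelled reads (-0.15 without replicate B), and was 1.00 (called) for *Arxes2* total reads without replicate B. With no filter, *Arxes2* labelled reads were not called at day 3 against day −2 (2.58, adjusted p = 0.016) or with ML-792 at day 3 (1.85, adjusted p = 0.13). With both genes summed the *Arxes1* values became 0.22 at day 1 against day −2, -0.17 with ML-792 at day −2 and 0.74 for day 3 minus day 1. The *Arxes2* share divided by that of its library differed by 0.04 (exact permutation p = 0.88).

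The replicate letters are not stated to mark a shared litter, batch or day. Libraries of the same letter did tend to deviate together: 68 of 84 such pairs correlated over 0.1 (mean r 0.19), against 20 of 168 pairs of different letters (mean r -0.09), and 22 of 24 libraries correlated best with their own letter. Pairing was adopted only if every same-letter pair passed 0.1, so the block is an alternative. With the replicate block the *Arxes2* effect at day 3 minus day 1 in total reads was called (0.82, adjusted p = 0.0057; 0.82 also with DESeq2, adjusted p = 0.074), and the block changed no other call. Exchanging treatments only within same-letter pairs, added after seeing the data, gave p = 0.031 for the ratio of the pair with ML-792 (exact permutation, 512 arrangements, not adjusted). DESeq2 gave no adjusted p for the labelled *Arxes2* effect at day 3 minus day −2. Depth limits the labelled reads, at most 77 per library for *Arxes2* and 8 for *Arxes1*.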
